A study of Mus musculus with 15 samples.

Results

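The hepatic amino acid transporters are 10 genes of the solute carrier (Slc) families, Slc38a2, Slc38a3, Slc38a4, Slc7a2, Slc3a1, Slc3a2, Slc1a2, Slc43a1, Slc16a10 and Slc25a47, taken by symbol from a mouse liver count table of 15302 genes. All 10 were in the table and all 10 passed the filter on low counts, which 12274 genes passed. The set was put together as carriers that move amino acids across the hepatocyte plasma membrane. Slc25a47 stands apart from that description, since it belongs to the mitochondrial carrier family and its protein sits in the inner mitochondrial membrane. Slc3a1 and Slc3a2 encode heavy chains that bring a partner transporter to the cell surface and are not carriers by themselves.

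The liver takes up most of the amino acids that arrive from the gut and from muscle, and hepatocytes use them for protein synthesis, for making glucose and for the urea cycle. Uptake of alanine and glutamine runs largely through sodium-coupled carriers of the Slc38 family, cationic amino acids enter through Slc7 carriers, and branched-chain and aromatic amino acids cross by facilitated diffusion. Fasting, glucagon and glucocorticoids are known to raise hepatic amino acid uptake, and the Slc38 carriers are among the proteins on which these signals act.

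Bulk RNA sequencing was done on livers of wild-type mice that had been moved at 8 weeks of age to a diet that causes metabolic dysfunction-associated steatohepatitis (MASH) and to housing at about 29°C. GDF15 mice received recombinant growth differentiation factor 15, a stress-induced hormone whose brainstem receptor lowers food intake, by injection under the skin once daily at 1 nmol per kg body weight, 1 to 2 h after the lights came on. PairFed mice were given each day the amount of food that the GDF15 mice had eaten the day before, and Vehicle mice were the controls of both. All mice were single-housed and had been assigned at random to groups of like body weight and composition, and each group has 5 libraries. All 3 groups share the diet and the warm housing, so there is no lean or cool-housed group among them. How long treatment lasted, and the strain, sex and age at sampling of the mice, are not known from the labels. The title of the series names glucocorticoid signalling and an effect of GDF15 apart from weight loss, and the comparison of GDF15 with PairFed livers sets the hormone against a matched food intake.

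Library totals were 8551557 to 10914914 in GDF15, 10133289 to 12933324 in PairFed and 9228127 to 12994187 in Vehicle livers. The 5 deepest libraries, PairFed 2 to 5 and Vehicle 4, lay above a gap between 10914914 and 12137462 counts, and none of them was a GDF15 library. The libraries also differed in immediate-early genes such as Fos and Egr1, which respond within minutes to stress or handling. A score over 22 of them, as mean log2 level minus the Vehicle mean, was 1.11, 1.23, -0.07, 0.55 and 0.88 in GDF15 libraries 1 to 5, 0.93, 0.42, 0.08, 0.32 and 0.61 in PairFed libraries 1 to 5, and -0.32, 0.28, -0.30, -0.01 and 0.35 in Vehicle libraries 1 to 5. Of 10 hepatocyte defining markers, 9 were in the table, and their summed level was 99370 to 126000 counts-per-million (CPM) in GDF15, 94270 to 116500 CPM in PairFed and 88090 to 107500 CPM in Vehicle livers. None of these 9 passed the test in any comparison, and their median log2 fold change was 0.21 between GDF15 and Vehicle and 0.04 between PairFed and Vehicle. Of 10 markers of recruited macrophages, all tested, 1 fell in GDF15 against Vehicle livers. This was Ly6c2, a scarce transcript that averaged 0.587 CPM in GDF15 and 1.565 CPM in Vehicle livers. The summed level of the 10 was 333 to 599 CPM in GDF15, 399 to 588 CPM in PairFed and 432.5 to 898 CPM in Vehicle livers. None of the 10 had a positive log2 fold change in GDF15 or in PairFed against Vehicle livers (medians -0.38 and -0.58). Of 10 markers of stellate cells and fibroblasts none passed and none had a positive log2 fold change in GDF15 or in PairFed against Vehicle livers (medians -0.50 and -0.29), with sums of 240.3 to 595 CPM in GDF15, 347 to 587 CPM in PairFed and 433.5 to 768 CPM in Vehicle livers. Of 8 tested bile duct cell markers, 1 fell in PairFed against Vehicle livers (Sox9), with sums of 152 to 349 CPM in GDF15, 175 to 301 CPM in PairFed and 221.5 to 512 CPM in Vehicle livers. Spp1 is on this list and on that of recruited macrophages, so the sums of these lists are not separate evidence. It averaged 184 CPM in GDF15, 196 CPM in PairFed and 295 CPM in Vehicle livers. Of 5 tested markers of T, NK and B cells, 1 fell in GDF15 against Vehicle livers (Cd8a), with sums of 3.63 to 5.62 CPM in GDF15, 3.61 to 8.28 CPM in PairFed and 5.99 to 16.9 CPM in Vehicle livers. Kupffer and endothelial cell markers, 10 each, had none that passed. Of the Kupffer markers 5 had a positive log2 fold change in GDF15 and 4 in PairFed against Vehicle livers. Of the endothelial markers 6 did in GDF15 (median 0.05) and 10 in PairFed against Vehicle livers (median 0.46). None of the endothelial markers had a positive value in GDF15 against PairFed livers (median -0.44). The part that depth, immediate-early genes or cell composition have in the values below was not tested, beyond the fits given beside them. Depth and score both differed between the groups, so those fits cannot separate either from the treatment. In whole liver, fewer hepatocytes and less RNA per hepatocyte cannot be told apart.

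The members lie on 8 chromosomes of the mouse genome (GRCm38, positions from GENCODE M21). Slc38a2 (chr15:96687392-96699730, minus strand) and Slc38a4 (chr15:96994820-97055956, minus strand) are neighbours in a cluster with Slc38a1 (chr15:96571418-96642913). No other protein-coding gene lies in the 44 kb between Slc38a1 and Slc38a2 or in the 295 kb between Slc38a2 and Slc38a4. Slc43a1 (chr2:84838850-84863594) and Slc1a2 (chr2:102658659-102790784) share chromosome 2 on the plus strand. The others are Slc38a3 (chr9:107650634-107669530, minus), Slc7a2 (chr8:40862396-40922308, plus), Slc3a1 (chr17:85028376-85064236, plus), Slc3a2 (chr19:8706882-8723369, minus), Slc16a10 (chr10:40033532-40142258, minus) and Slc25a47 (chr12:108836046-108856815, plus). Slc3a1 overlaps Prepl, a peptidase-family gene on the opposite strand, over 767 bases.

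RefSeq promoter windows (GRCm38.p6), each from 250 bases before to 50 bases after a gene's annotated start, were matched for 8 of the 10 members, and not for Slc38a3 and Slc7a2. The windows of Slc38a2 and Slc38a4 are shown because these system A carriers are neighbours, because Slc38a4 passed the test below and Slc38a2 had the highest fold change of the 10. All 4 windows lie on the minus strand and are written 5′ to 3′ along the gene. Capitals mark TGACG, the core of a cyclic AMP response element.
Slc38a2, chr15:96699679-96699978: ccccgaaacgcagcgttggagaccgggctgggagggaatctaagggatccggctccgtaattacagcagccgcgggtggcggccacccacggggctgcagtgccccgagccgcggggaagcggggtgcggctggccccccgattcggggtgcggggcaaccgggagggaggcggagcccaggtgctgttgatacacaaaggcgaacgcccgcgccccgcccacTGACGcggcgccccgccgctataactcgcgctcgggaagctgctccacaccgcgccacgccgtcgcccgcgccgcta
Slc38a4, first start, chr15:97055907-97056206: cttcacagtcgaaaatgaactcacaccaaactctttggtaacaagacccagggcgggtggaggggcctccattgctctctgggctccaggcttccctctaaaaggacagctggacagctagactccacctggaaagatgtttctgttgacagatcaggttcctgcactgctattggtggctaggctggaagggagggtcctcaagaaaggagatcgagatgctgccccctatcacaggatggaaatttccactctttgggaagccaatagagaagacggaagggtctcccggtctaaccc
Slc38a4, middle start, chr15:97031164-97031463: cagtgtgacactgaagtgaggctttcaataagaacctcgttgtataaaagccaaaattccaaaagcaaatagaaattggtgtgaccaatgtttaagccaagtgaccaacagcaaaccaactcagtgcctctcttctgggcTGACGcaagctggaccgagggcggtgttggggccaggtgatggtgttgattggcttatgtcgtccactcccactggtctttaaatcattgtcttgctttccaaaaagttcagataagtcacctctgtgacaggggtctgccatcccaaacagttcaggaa
Slc38a4, last start, chr15:97020310-97020609: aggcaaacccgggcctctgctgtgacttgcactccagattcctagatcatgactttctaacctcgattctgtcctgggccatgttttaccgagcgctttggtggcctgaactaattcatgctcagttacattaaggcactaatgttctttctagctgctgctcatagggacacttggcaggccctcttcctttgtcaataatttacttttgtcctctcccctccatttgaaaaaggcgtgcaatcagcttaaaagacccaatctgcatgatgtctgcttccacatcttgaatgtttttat
Slc38a2 has a GC-rich window, 73.0% G and C, against 53.0%, 46.7% and 45.3% in the Slc38a4 windows and a median of 52.7% over all 32851 promoter windows of the table. TGACG was searched on both strands and found in the Slc38a2 window, starting at base -27, and in the middle Slc38a4 window, starting at base -110. The same letters occur in 6837 of the 32851 windows (20.8%). The glucocorticoid response element, read as GNACA and TGTNC with 3 free bases between them, was in 156 windows (0.475%) and the C/EBP-ATF composite element TGATGNAA in 1304 windows (3.97%), both searched on both strands, and neither was in a window of the 8 matched members. These matches describe the letters of short windows only.

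Levels are given as CPM after TMM scaling, a method that sets libraries to a common level from the genes that differ least, and fold changes as log2 ratios with their standard error (SE). Differences were tested with edgeR's quasi-likelihood test, and p was adjusted over all 12274 genes by the Benjamini-Hochberg method with 0.05 as the threshold. Per kilobase of annotated exon, in GDF15, PairFed and Vehicle livers in that order, the members ran from Slc38a3 (299, 296 and 208 CPM per kb), Slc38a4 (294, 255.5 and 191 CPM per kb) and Slc25a47 (273.5, 281 and 224 CPM per kb) to Slc43a1 (0.422, 0.444 and 0.301 CPM per kb). Between them lay Slc7a2 (59.4, 48.2 and 27.9 CPM per kb) and Slc38a2 (28.8, 19.0 and 11.03 CPM per kb). Slc3a1, Slc16a10, Slc3a2 and Slc1a2 lay between 8.17 and 26.0 CPM per kb in every group mean.

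GDF15 livers had more transcript of 2 transporters than Vehicle livers by this test, the neutral amino acid carrier Slc38a4 and the cationic amino acid carrier Slc7a2. The other 8 members did not pass. Of all genes, 2.9% passed in this comparison, 2.02% higher and 0.88% lower in GDF15 livers. All members but Slc3a2 had a positive log2 fold change, 9 of 10, against 48.9% of all genes, and 8 of 10 had an unadjusted p under the 0.05 level, against 16.7% of all genes. The median log2 fold change was 0.48 over the 10 members and 0.00 over all genes tested. In PairFed livers no member passed against Vehicle, where 0.285% of all genes passed, 0.147% higher and 0.139% lower. An unadjusted p under the 0.05 level was found for 5 of 10, against 16.9% of all genes. All 10 had a positive log2 fold change, against 49.9% of all genes, with a median of 0.46 against 0.00, although Slc3a1 and Slc3a2 turn slightly negative with upper-quartile scaling. Between GDF15 and PairFed livers no member passed either, where 0.782% of all genes passed, 0.562% higher and 0.22% lower. Of the 10, 6 had a positive log2 fold change, against 50.2% of all genes, with a median of 0.11 against 0.00, and Slc38a3 turns negative with upper-quartile scaling. No member had GDF15 and PairFed libraries that did not overlap, against 2.86% of all genes. DESeq2's Wald test called 6, 4 and 0 members in these 3 comparisons, where it called 625, 332 and 247 of all genes, against 356, 35 and 96 by edgeR. The GDF15 and PairFed comparisons with Vehicle share the 5 Vehicle libraries, so their likeness is no separate evidence. The members were chosen with earlier results of these data known. Their counts beside the shares of all genes are therefore descriptions and not a test of the set.

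**Figure D1:**
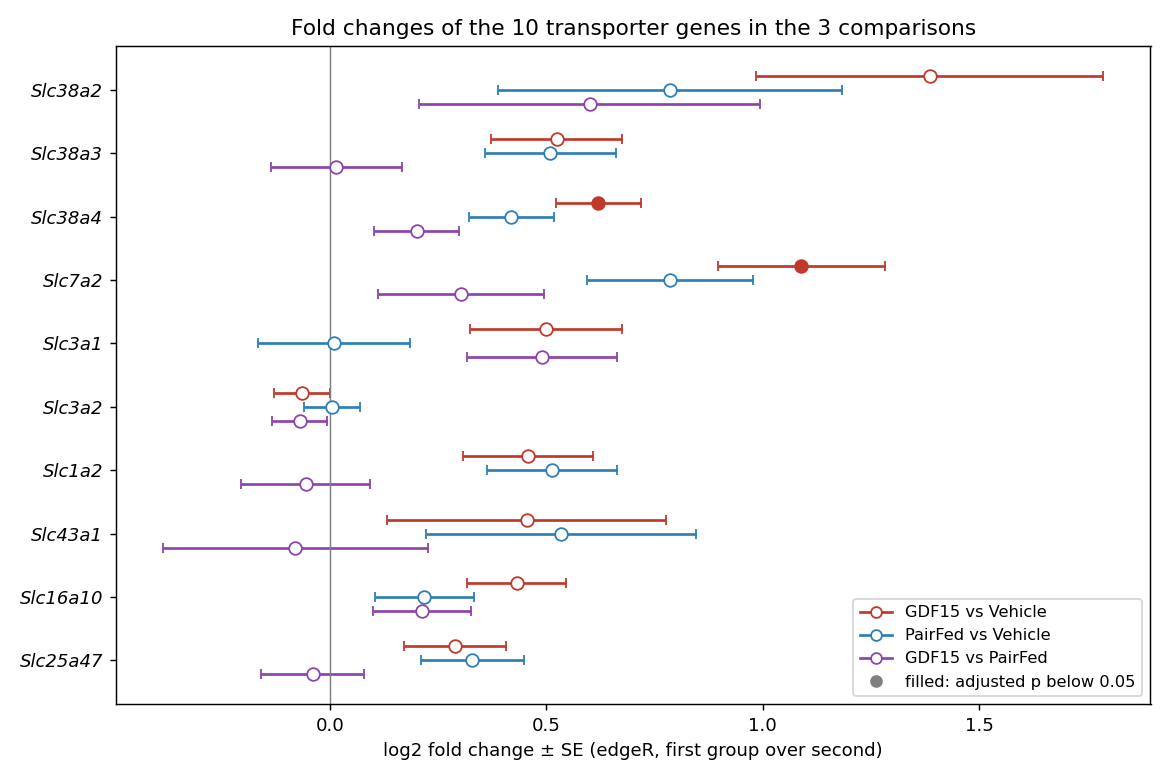
Log2 fold changes (horizontal axis, point and bar are the value and its SE) of the 10 transporter genes in GDF15 against Vehicle, PairFed against Vehicle and GDF15 against PairFed livers. Filled points passed an adjusted p of 0.05, which in the 3 comparisons only Slc38a4 (0.62) and Slc7a2 (1.09) did, both for GDF15 against Vehicle; values close to 0, such as those of Slc3a1 and Slc3a2 for PairFed against Vehicle, change sign with upper-quartile scaling.

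Among the system A carriers, which take up small neutral amino acids such as alanine with sodium, Slc38a4 (SNAT4) is the form that the liver makes most of. Slc38a4 had 1347, 1303.5, 1011, 1305 and 1288 CPM in GDF15 libraries 1 to 5, 1005, 1214, 1107, 1098 and 1019 CPM in PairFed libraries 1 to 5, and 759.5, 859.85, 654, 826 and 969.6 CPM in Vehicle libraries 1 to 5. Every GDF15 and every PairFed library was above every Vehicle library, while GDF15 library 3 lay among the PairFed values. Means were 1251 ± 136 CPM in GDF15, 1089 ± 83.4 CPM in PairFed and 814 ± 117 CPM in Vehicle livers (SD, n = 5 each). Slc38a4 rose 1.54-fold in GDF15 against Vehicle livers, a log2 fold change of 0.62 ± 0.10 (SE) with an adjusted p of 0.00228 by edgeR's quasi-likelihood test. The PairFed difference from Vehicle was 0.42 ± 0.10 with an adjusted p of 0.0724, and the GDF15 difference from PairFed was 0.20 ± 0.10 with an adjusted p of 0.384, both by edgeR.

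Slc7a2 encodes CAT2, a carrier of arginine, lysine and ornithine, whose splice forms differ in their affinity for these amino acids and cannot be told apart in gene-level counts. Slc7a2 had 682, 639.8, 337, 463 and 593 CPM in GDF15 libraries 1 to 5, 402, 553, 454, 447 and 344 CPM in PairFed libraries 1 to 5, and 263, 275, 171, 287 and 279 CPM in Vehicle libraries 1 to 5. Again no GDF15 or PairFed library reached down to the highest Vehicle library, and GDF15 library 3 was below every PairFed library. Means were 543 ± 142 CPM in GDF15, 440.06 ± 77.1 CPM in PairFed and 255 ± 48.0 CPM in Vehicle livers (SD, n = 5 each). The gene rose 2.13-fold in GDF15 against Vehicle livers (log2 fold change 1.09 ± 0.19, edgeR adjusted p = 0.00813). PairFed livers differed from Vehicle by 0.79 ± 0.19 (edgeR adjusted p = 0.0797) and GDF15 from PairFed livers by 0.30 ± 0.19 (edgeR adjusted p = 0.528). Slc38a4 and Slc7a2 were the only 2 of the 10 members whose GDF15 and Vehicle libraries did not overlap, against 3.99% of all genes, and the only 2 whose PairFed and Vehicle libraries did not overlap, against 3.92% of all genes.

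Both calls held when any 1 of the 15 libraries was left out, and when the fit held a depth term that marks the 5 deepest libraries (edgeR adjusted p = 0.00326 for Slc38a4 and 0.0107 for Slc7a2). With the 10 shallower libraries alone Slc7a2 did not pass (1.13, edgeR adjusted p = 0.0582). Neither passed once the fit held the immediate-early score as a term: the log2 fold change of Slc38a4 was 0.44 ± 0.11 (edgeR adjusted p = 0.229) and that of Slc7a2 was 0.70 ± 0.22 (edgeR adjusted p = 0.476). The score was itself higher in most GDF15 libraries, with a median log2 fold change of 0.90 over its 22 genes against Vehicle. A fit that holds it cannot tell the score and the treatment apart.

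Slc38a2 (SNAT2), the system A carrier that many cell types induce when amino acids run short, had the highest coefficient of variation of the 10 members in GDF15 and in PairFed livers. It had 335, 429.5, 104, 163 and 242 CPM in GDF15 libraries 1 to 5, 233, 272, 83.2, 116 and 136 CPM in PairFed libraries 1 to 5, and 81.6, 111.5, 88.5, 79.3 and 126 CPM in Vehicle libraries 1 to 5. GDF15 libraries 1, 2, 4 and 5 and PairFed libraries 1, 2 and 5 were above every Vehicle library, while GDF15 library 3 and PairFed libraries 3 and 4 were not. This coefficient, the SD over the mean, was 51.4% in GDF15, 48.0% in PairFed and 21.1% in Vehicle livers. The log2 fold change between GDF15 and Vehicle was 1.39 ± 0.40, the highest of the 10 members, and did not pass (edgeR adjusted p = 0.0901). PairFed and Vehicle differed by 0.79 ± 0.40 (edgeR adjusted p = 0.334), and GDF15 and PairFed by 0.60 ± 0.39 (edgeR adjusted p = 0.553). GDF15 libraries 1 and 2 also had the highest immediate-early scores and library 3 the lowest of its group. Without GDF15 library 3 Slc38a2 passed (1.59, edgeR adjusted p = 0.0326), and with the score in the fit its log2 fold change was 0.22 (edgeR adjusted p = 0.997).

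Slc38a3 (SNAT3) exchanges glutamine, histidine and asparagine with sodium and protons and is the main glutamine carrier of hepatocytes. It had 1721, 1644.5, 1356, 1854 and 1316 CPM in GDF15 libraries 1 to 5, 1333, 1864, 1789.9, 1538 and 1283 CPM in PairFed libraries 1 to 5, and 921, 1214.5, 802, 1412 and 1136 CPM in Vehicle libraries 1 to 5. Vehicle library 4 overlapped both other groups, and the remaining Vehicle libraries were below all of theirs. The log2 fold change was 0.52 ± 0.15 between GDF15 and Vehicle (edgeR adjusted p = 0.0765), 0.51 ± 0.15 between PairFed and Vehicle (edgeR adjusted p = 0.122) and 0.02 ± 0.15 between GDF15 and PairFed (edgeR adjusted p = 0.98). Between GDF15 and Vehicle the gene passed without Vehicle library 4 (0.63, edgeR adjusted p = 0.0355) and with the depth term (0.61, edgeR adjusted p = 0.023), while adjusted p reached 0.191 when another library was left out and was 0.762 with the immediate-early score in the fit (0.45). With the depth term, which sets PairFed libraries 2 to 5 and Vehicle library 4 apart, its values were 0.29 between PairFed and Vehicle and 0.32 between GDF15 and PairFed (edgeR adjusted p = 0.533 and 0.647).

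Slc1a2, the glutamate transporter GLT1, is made in the liver by the hepatocytes around the central vein that also hold glutamine synthetase (Glul). It had 183, 161, 117, 136 and 139 CPM in GDF15 libraries 1 to 5, 136, 169, 177, 152 and 132 CPM in PairFed libraries 1 to 5, and 104, 119, 72.2, 134 and 106 CPM in Vehicle libraries 1 to 5. In each of the GDF15 and PairFed groups 4 of 5 libraries were above every Vehicle library. The log2 fold change was 0.46 ± 0.15 between GDF15 and Vehicle (edgeR adjusted p = 0.122) and 0.51 ± 0.15 between PairFed and Vehicle (edgeR adjusted p = 0.119), so neither passed. GDF15 and PairFed differed by -0.06 ± 0.15 (edgeR adjusted p = 0.912), and by 0.20 with the depth term. Glul averaged 2176 ± 359.5 CPM in GDF15 and 1768 ± 219 CPM in Vehicle livers (SD, n = 5 each), and its log2 fold change of 0.30 ± 0.10 did not pass (edgeR adjusted p = 0.135). Of 18 markers of pericentral hepatocytes, 1 rose in GDF15 against Vehicle livers (Cyp27a1) and 1 rose in PairFed against Vehicle livers (Rnf43).

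**Figure D2:**
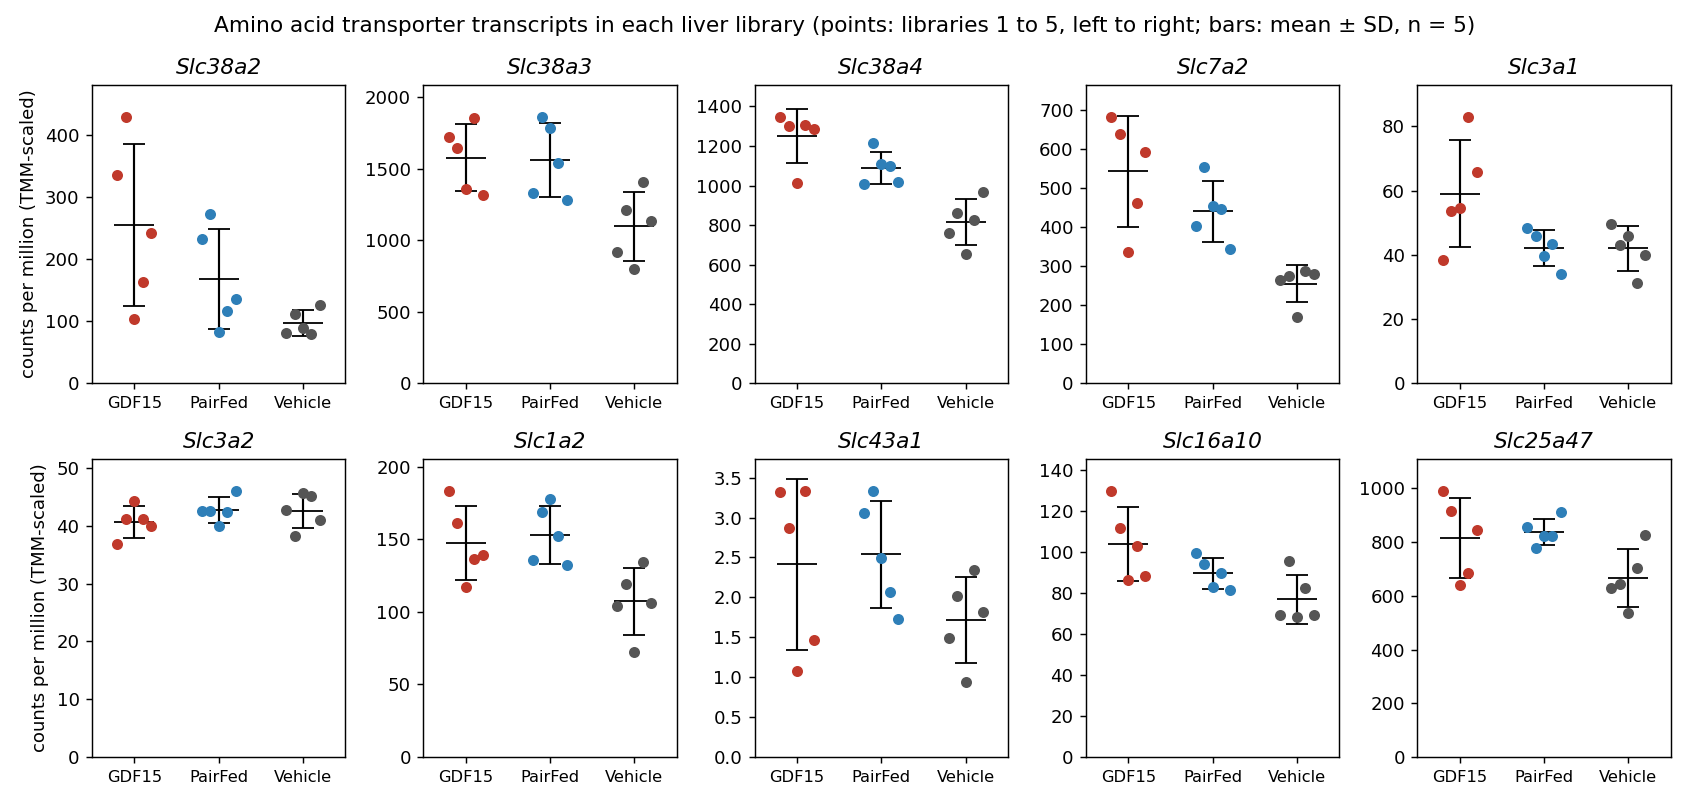
TMM-scaled CPM (vertical axis) of each transporter gene in the 15 liver libraries; points are libraries 1 to 5 from left to right, and bars are the mean and SD of 5. Slc38a4 and Slc7a2 have no GDF15 or PairFed library down in the Vehicle range, Slc38a2 spans 104 to 429.5 CPM in GDF15 livers, and Slc3a2 lies between 36.8 and 46.1 CPM in every library.

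Slc16a10 (TAT1) lets aromatic amino acids, tyrosine, phenylalanine and tryptophan, pass across the hepatocyte membrane down their gradient. It had 129.95, 112, 86.5, 103 and 88.2 CPM in GDF15 libraries 1 to 5, 99.5, 94.2, 83.1, 89.6 and 81.7 CPM in PairFed libraries 1 to 5, and 69.4, 95.5, 68.3, 82.3 and 69.3 CPM in Vehicle libraries 1 to 5. GDF15 libraries 1, 2 and 4 were above every Vehicle library, and libraries 3 and 5 were below Vehicle library 2. With a log2 fold change of 0.43 ± 0.11 between GDF15 and Vehicle, it lay just outside the threshold (edgeR adjusted p = 0.0504). It passed when GDF15 library 3 (adjusted p = 0.024), GDF15 library 5 (adjusted p = 0.0376) or Vehicle library 2 (adjusted p = 0.0195) was left out of the edgeR fit, and leaving out another gave adjusted p-values up to 0.141. With the immediate-early score in the fit its log2 fold change was 0.19 (edgeR adjusted p = 0.931). PairFed and Vehicle differed by 0.22 ± 0.11 (edgeR adjusted p = 0.335), and GDF15 and PairFed by 0.21 ± 0.11 (edgeR adjusted p = 0.433).

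Slc43a1 (LAT3), a facilitated carrier of branched-chain amino acids and phenylalanine, was the scarcest of the 10, with 9 to 42 counts per library. It had 3.32, 2.87, 1.07, 3.33 and 1.47 CPM in GDF15 libraries 1 to 5, 3.06, 3.34, 2.49, 2.07 and 1.73 CPM in PairFed libraries 1 to 5, and 1.48, 2.01, 0.936, 2.34 and 1.82 CPM in Vehicle libraries 1 to 5. The groups overlapped widely. The log2 fold changes of 0.45 ± 0.32 for GDF15 and 0.53 ± 0.31 for PairFed against Vehicle did not pass (edgeR adjusted p = 0.516 and 0.396).

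Of the heavy chains, Slc3a1 (rBAT) is the partner of Slc7a9 in the exchanger of cystine and dibasic amino acids known from kidney and gut, and Slc7a9 was not analysed here. Slc3a1 had 38.3, 53.7, 54.6, 82.9 and 65.9 CPM in GDF15 libraries 1 to 5, 48.3, 45.8, 39.5, 43.5 and 33.9 CPM in PairFed libraries 1 to 5, and 49.7, 43.1, 45.7, 31.4 and 40.0 CPM in Vehicle libraries 1 to 5. GDF15 libraries 2 to 5 were above every PairFed and every Vehicle library, while library 1 lay among them. The log2 fold change was 0.50 ± 0.18 between GDF15 and Vehicle (edgeR adjusted p = 0.15), 0.01 ± 0.18 between PairFed and Vehicle (edgeR adjusted p = 0.984; -0.02 with upper-quartile scaling) and 0.49 ± 0.17 between GDF15 and PairFed (edgeR adjusted p = 0.232). Slc3a1 was the only 1 of the 10 members with an unadjusted p under the 0.05 level between GDF15 and PairFed, where 13.3% of all genes had one. With the depth term that value was 0.19 ± 0.23 (edgeR adjusted p = 0.864). Its opposite-strand neighbour Prepl, with 3755 counts in all, had a log2 fold change of 0.10 ± 0.09 between GDF15 and Vehicle and -0.03 ± 0.08 between GDF15 and PairFed (edgeR adjusted p = 0.617 and 0.923). The library kit keeps the strand, but whether the counting used it is not stated in the labels or the table.

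Slc3a2 (4F2hc, or CD98) carries the light chains Slc7a5, Slc7a6, Slc7a7, Slc7a8 and Slc7a11 to the cell surface. It had 36.8, 41.2, 44.3, 41.3 and 39.9 CPM in GDF15 libraries 1 to 5, 42.7, 42.7, 40.0, 42.4 and 46.1 CPM in PairFed libraries 1 to 5, and 42.8, 38.3, 45.6, 45.1 and 41.1 CPM in Vehicle libraries 1 to 5. The groups lay on top of one another, with coefficients of variation of 6.68%, 5.09% and 7.08% in GDF15, PairFed and Vehicle livers. Its log2 fold change was -0.06 ± 0.06 between GDF15 and Vehicle (edgeR adjusted p = 0.669) and -0.07 ± 0.06 between GDF15 and PairFed (edgeR adjusted p = 0.693). Of its light chains, Slc7a8, a carrier of neutral amino acids, averaged 9.33 ± 2.59 CPM in GDF15 and 12.45 ± 1.57 CPM in Vehicle livers (SD, n = 5 each; log2 fold change -0.40 ± 0.16, edgeR adjusted p = 0.188). Slc7a5, the large neutral amino acid carrier LAT1, averaged 2.27 ± 0.25 CPM in GDF15 and 2.28 ± 0.48 CPM in Vehicle livers (SD, n = 5 each; log2 fold change 0.00, edgeR adjusted p = 0.998). Slc7a11, the cystine and glutamate exchanger, had only 40 counts in all and was too low to test.

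Slc25a47, a liver-enriched carrier of the inner mitochondrial membrane, had 992, 916, 642, 685 and 846 CPM in GDF15 libraries 1 to 5, 856, 779.8, 823, 824 and 912 CPM in PairFed libraries 1 to 5, and 629, 643, 537, 703 and 828 CPM in Vehicle libraries 1 to 5. GDF15 libraries 3 and 4 lay within the Vehicle range, and Vehicle library 5 reached into both other groups. The log2 fold change was 0.29 ± 0.12 between GDF15 and Vehicle (edgeR adjusted p = 0.22), 0.33 ± 0.12 between PairFed and Vehicle (edgeR adjusted p = 0.172) and -0.04 ± 0.12 between GDF15 and PairFed (edgeR adjusted p = 0.922).

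By group mean, 6 members (Slc38a2, Slc38a3, Slc38a4, Slc7a2, Slc3a1 and Slc16a10) were ordered GDF15, PairFed, Vehicle, from high to low. For Slc1a2, Slc43a1 and Slc25a47 PairFed was the highest and Vehicle the lowest, and for Slc3a2 PairFed was the highest and GDF15 the lowest. None of the steps between GDF15 and PairFed, and none between PairFed and Vehicle, passed the test for any of the 10. Together the 10 members summed to 5469, 5305, 3754, 4837 and 4620 CPM in GDF15 libraries 1 to 5. The sums were 4158, 5038, 4600, 4353 and 3990 CPM in PairFed libraries 1 to 5. In Vehicle libraries 1 to 5 they were 2922, 3401, 2485, 3603 and 3598 CPM. On this TMM-scaled level, which is not a share of a library's counts, all GDF15 and all PairFed sums were above all Vehicle sums. Slc38a3, Slc38a4 and Slc25a47 were the most abundant terms of the sum. GDF15 library 3 was the lowest of its group for 7 of 10 members, Vehicle library 3 the lowest of its group for 7, and PairFed library 5 the lowest of its group for 6.

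**Figure D3:**
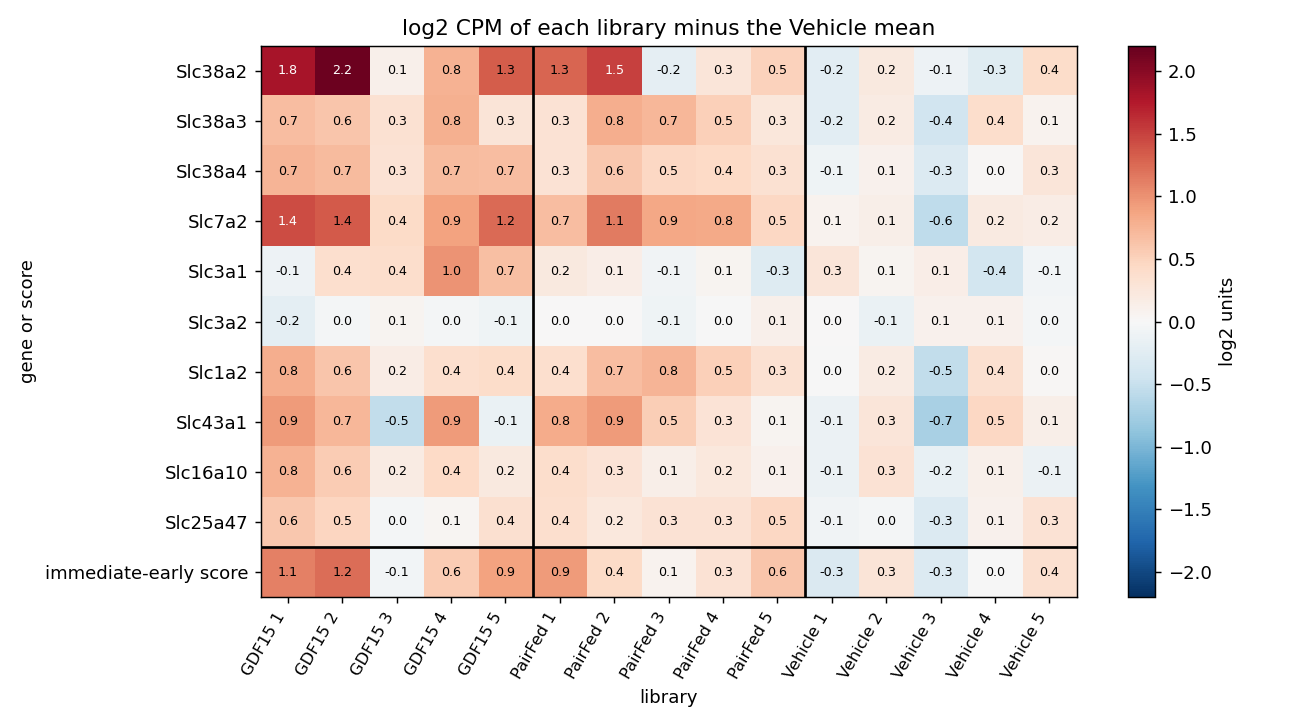
Log2 CPM of each transporter gene minus its Vehicle mean (colour and number in each cell) in each library, with the immediate-early score in the bottom row. GDF15 libraries 1 and 2 have the highest Slc38a2 cells and the highest scores (1.11 and 1.23), GDF15 library 3 is pale in most rows with a score of -0.07, and the Slc3a2 row stays near 0 throughout.

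Over the 15 libraries the member most like Slc38a4 in log2 CPM was Slc7a2 (Pearson's r = 0.955), and the member most like Slc38a3 was Slc1a2 (r = 0.911). After each group's mean was taken away these values were 0.847 and 0.826. Slc3a2 had a negative r with each of the 9 other members over the 15 libraries. Among genes outside the 10 members, Etnk2 (r = 0.976), Per1 (r = 0.961) and Lipg (r = 0.96) were most like Slc7a2. St3gal5 (r = 0.957), Etnk2 (r = 0.951) and Upp2 (r = 0.947) were most like Slc38a4. Vdac1 (r = 0.954), Hpn (r = 0.939) and Abhd14b (r = 0.937) were most like Slc38a3, and Hpgd (r = 0.957), Cyp2c68 (r = 0.948) and Hikeshi (r = 0.925) were most like Slc16a10. Etnk2 encodes an ethanolamine kinase, Per1 a circadian clock protein, Lipg a lipase, St3gal5 a ganglioside-forming sialyltransferase, Upp2 a uridine phosphorylase and Vdac1 a channel of the outer mitochondrial membrane. All these values share the libraries, their depth and the group differences, and are descriptions only.

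The other amino acid transporters of the plasma membrane were fewer in the table than on the list. Of 30 listed, 19 were in the table and 14 were tested; none passed in any comparison, and 4 of 14 had a positive log2 fold change in GDF15 and 4 of 14 in PairFed against Vehicle livers, with medians of -0.24 and -0.19. The taurine carrier Slc6a6 averaged 108 ± 9.64 CPM in GDF15 and 108 ± 9.57 CPM in Vehicle livers (SD, n = 5 each; log2 fold change 0.00, edgeR adjusted p = 0.998). Slc1a5, a carrier of glutamine and other neutral amino acids found in most dividing cells, averaged 3.89 ± 0.36 CPM in GDF15 and 5.48 ± 0.49 CPM in Vehicle livers (SD, n = 5 each; log2 fold change -0.49 ± 0.15, edgeR adjusted p = 0.0836). Slc1a4, a carrier of alanine, serine and cysteine, averaged 17.7 ± 5.69 CPM in GDF15 and 21.55 ± 7.02 CPM in Vehicle livers (SD, n = 5 each; log2 fold change -0.28 ± 0.27, edgeR adjusted p = 0.653). Slc7a1, the widely expressed relative of Slc7a2, averaged 1.51 ± 0.63 CPM in GDF15 and 1.86 ± 0.62 CPM in Vehicle livers (SD, n = 5 each; log2 fold change -0.31 ± 0.30, edgeR adjusted p = 0.654). Slc38a1, the third gene of the Slc38a2 and Slc38a4 cluster, averaged 2.42 ± 1.16 CPM in GDF15 and 3.13 ± 0.70 CPM in Vehicle livers (SD, n = 5 each; log2 fold change -0.36 ± 0.30, edgeR adjusted p = 0.598).

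Mitochondrial amino acid carriers, a list that shares the inner mitochondrial membrane with Slc25a47 but does not hold it, had 10 tested genes. Of these, 3 rose and none fell in GDF15 against Vehicle livers, with a median of 0.31. Slc25a15, the ornithine carrier of the urea cycle, averaged 351 ± 57.0 CPM in GDF15, 252 ± 33.3 CPM in PairFed and 235 ± 20.65 CPM in Vehicle livers (SD, n = 5 each). It rose against Vehicle (log2 fold change 0.58 ± 0.11, edgeR adjusted p = 0.00677) and against PairFed livers (0.48 ± 0.11, edgeR adjusted p = 0.0479). The glutamate carrier Slc25a22 rose by 0.92 ± 0.16 (edgeR adjusted p = 0.00573) and the serine carrier family gene Sfxn2 by 0.44 ± 0.07 (edgeR adjusted p = 0.00228), both against Vehicle, and Sfxn2 also rose against PairFed livers (0.30 ± 0.07, edgeR adjusted p = 0.0491). The aspartate and glutamate carrier Slc25a13 had a log2 fold change of 0.25 ± 0.09 against Vehicle and did not pass (edgeR adjusted p = 0.127). With the depth term neither Slc25a15 (0.27) nor Sfxn2 (0.21) passed against PairFed livers (edgeR adjusted p = 0.603 and 0.557). With the immediate-early score in the fit neither passed against PairFed livers (edgeR adjusted p = 0.0934 and 0.109). Nor did Slc25a15, Slc25a22 or Sfxn2 pass against Vehicle livers with the score (edgeR adjusted p = 0.5275, 0.355 and 0.238). None of the 10 passed between PairFed and Vehicle livers.

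Among enzymes of amino acid metabolism and the urea cycle, some of which act on substrates that these carriers do not move, 19 were tested. Of these, 13 rose and none fell in GDF15 against Vehicle livers, with a median of 0.62, none passed between PairFed and Vehicle livers, with a median of 0.26, and 4 (Ass1, Cps1, Tdo2 and Sds) rose in GDF15 against PairFed livers, with a median of 0.32. Sds, the serine dehydratase of gluconeogenesis, averaged 508 ± 123 CPM in GDF15, 240.5 ± 47.2 CPM in PairFed and 171 ± 20.6 CPM in Vehicle livers (SD, n = 5 each), and had a log2 fold change of 1.57 ± 0.17 between GDF15 and Vehicle (edgeR adjusted p = 0.000274). Cps1, which makes carbamoyl phosphate for the urea cycle, averaged 2560 ± 206 CPM in GDF15, 1550 ± 145 CPM in PairFed and 1514 ± 196 CPM in Vehicle livers (SD, n = 5 each). Its log2 fold change was 0.76 ± 0.09 between GDF15 and Vehicle (edgeR adjusted p = 0.000274) and 0.72 ± 0.09 between GDF15 and PairFed livers (edgeR adjusted p = 0.000652). Gls2, the liver glutaminase that acts on the glutamine Slc38a3 carries, rose in GDF15 against Vehicle livers by 0.74 ± 0.11 (edgeR adjusted p = 0.00167). Arg1, the arginase of the urea cycle, rose by 0.59 ± 0.09 (edgeR adjusted p = 0.00228). Tdo2, which degrades tryptophan, rose by 0.63 ± 0.10 (edgeR adjusted p = 0.00228) and Ass1, the argininosuccinate synthase, by 0.75 ± 0.11 (edgeR adjusted p = 0.00154). Between GDF15 and PairFed livers the log2 fold changes were 0.72 ± 0.09 for Cps1, 0.50 ± 0.11 for Ass1, 0.45 ± 0.10 for Tdo2 and 1.08 ± 0.17 for Sds. With the depth term they were 0.52 ± 0.12, 0.53 ± 0.17, 0.53 ± 0.14 and 0.96 ± 0.25, and none of these 4 passed (edgeR adjusted p = 0.133, 0.376, 0.267 and 0.295). The SE was larger with the term for all 4. The term marks PairFed libraries 2 to 5 and no GDF15 library, so depth and group can hardly be told apart here. Of the 13 enzymes that rose against Vehicle livers, not all passed with the term (highest edgeR adjusted p = 0.0568). With the immediate-early score in the fit, 9 of all 12274 genes passed between GDF15 and Vehicle livers, against 356 without it. Of the enzymes only Cps1 (0.67, edgeR adjusted p = 0.0402) and Sds (1.19, edgeR adjusted p = 0.013) were among them. Between GDF15 and PairFed livers Cps1 (0.69) and Sds (0.92) passed with the score (edgeR adjusted p = 0.00178 and 0.00989). Ass1 and Tdo2 did not (edgeR adjusted p = 0.0787 and 0.093).

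**Figure D4:**
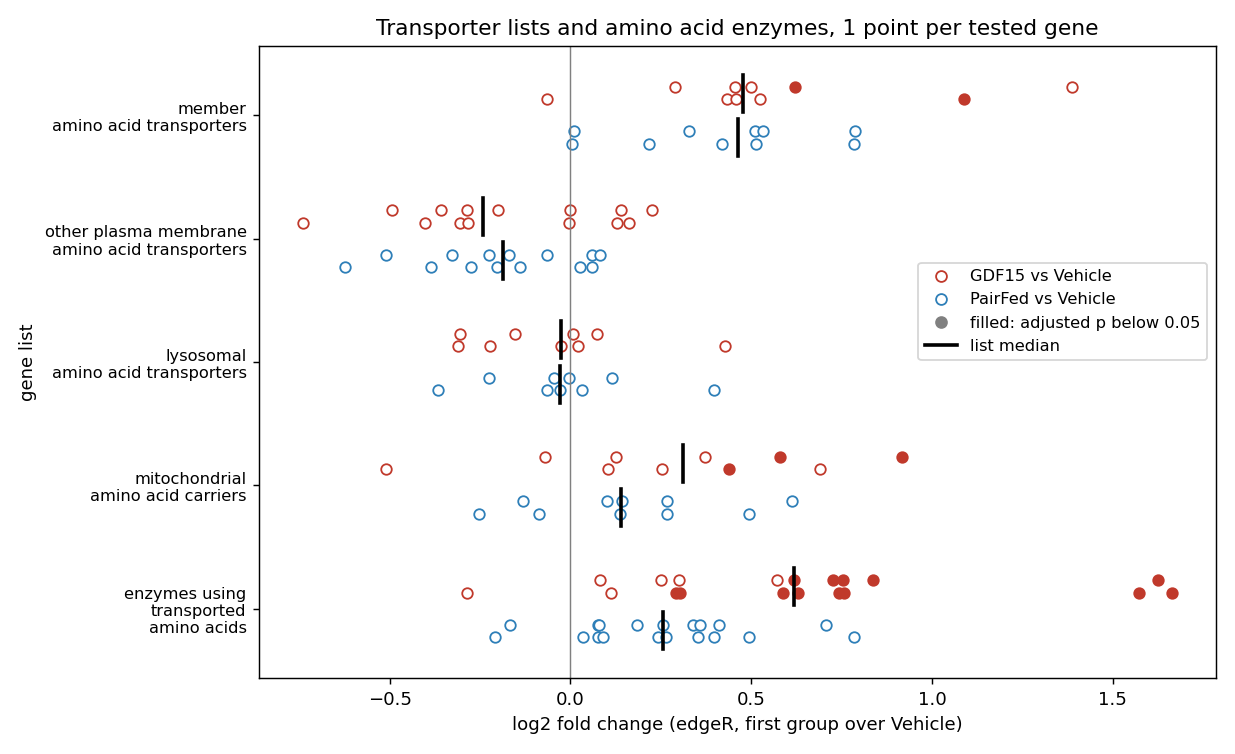
Log2 fold changes (horizontal axis) against Vehicle of the 10 transporters, of 14 other plasma membrane, 9 lysosomal and 10 mitochondrial amino acid transporters and of 19 enzymes, 1 point per tested gene, with GDF15 above PairFed in each list and a bar at the list's median. Filled points passed an adjusted p of 0.05; the medians for GDF15 are 0.48, -0.24, -0.03, 0.31 and 0.62 from top to bottom, and no PairFed point is filled.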

How the data were processed

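The authors deposited 1 table of estimated counts per gene symbol for the 15 libraries. Per the submitters' processing notes, Salmon, DESeq2 and the mm10 build were used, with no version or step given, and the libraries were made with a directional kit per the labels' protocols. The transcript set and the strand setting were not given in the sources used here. The estimated counts the authors deposited were already whole, so rounding changed none, and the lowest row sum was 5. Columns name the group and a number, which names a library and ties it to no animal, so p-values measure the spread between these libraries.

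Genes were filtered with filterByExpr (minimum count 10, minimum total 15), scaled by TMM and fitted over all 3 groups with edgeR 4.0.16 (limma 3.58.1, R 4.3.3), quasi-likelihood test, Benjamini-Hochberg adjustment. The common biological coefficient of variation was 13.3%. Log2 CPM used a prior count of 2. DESeq2 1.42.0, voom, other scalings and filters, covariates and each left-out library were alternatives. The steps were tested on simulated data. Within-group library pairs differed beyond counting noise (lowest chi-square per degree of freedom 6.87).

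The text names the 10 members, up to 6 called genes of each list by smallest p, a fixed set of related genes (such as Glul, Slc7a5, Slc1a5 and Atf4), and the 3 genes outside the members of highest Pearson's r with each of the 4 members of smallest p. Slc38a1 was named for its place in the cluster, and Spp1 for its place on the macrophage and bile duct lists, after their values were seen. The members and lists were chosen with earlier results of these data known.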

Additional observations from a re-analysis of the deposited data

Results flagged for a closer look

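Of 30 groups of 5 libraries (10 genes in 3 groups), 2 held a library that stood far from the other 4, by the gap to its nearest neighbour as a share of the group's range; chance alone marks about 1 group in 20. Slc38a4 in GDF15 library 3 was the lowest of its group at 1011.3 CPM, with a gap share of 0.823 against a critical value of 0.71. Without this library the log2 fold change of Slc38a4 between GDF15 and Vehicle was 0.69 (edgeR adjusted p = 0.000613), against 0.62 with it. Slc7a2 in Vehicle library 3 was the lowest of its group at 170.7 CPM, with a gap share of 0.794. Without this library the log2 fold change of Slc7a2 was 0.97 (edgeR adjusted p = 0.0152), against 1.09 with it.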

How the results depend on the processing

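Of 757 member values under alternatives, 697 kept their direction and their side of the threshold, 23 passed only under the alternative, 3 passed only in the main analysis and 34 changed sign; causes were not tested. DESeq2's Wald test called 6, 4 and 0 members for GDF15 against Vehicle, PairFed against Vehicle and GDF15 against PairFed (625, 332 and 247 genes), against 2, 0 and 0 (356, 35 and 96 genes) with edgeR. With the immediate-early score in the fit 0 members passed for GDF15 against Vehicle, and 9, 0 and 63 genes passed in the 3 comparisons. A term for the deeper libraries gave 0 genes for PairFed against Vehicle and 9 for GDF15 against PairFed, and kept both called members (Slc38a4 0.64, edgeR adjusted p = 0.00326; Slc7a2 1.13, edgeR adjusted p = 0.0107); for GDF15 against PairFed it gave 0.23 for Slc38a2 and 0.46 for Slc7a2, against 0.60 and 0.30 without it. Fitting only the groups compared gave 194 genes for GDF15 against Vehicle. The 10 shallower libraries alone, an alternative chosen after seeing the data, gave 151 genes and 1 member, Slc38a4 (0.62, edgeR adjusted p = 0.0223), with Slc7a2 at 1.13 (edgeR adjusted p = 0.0582). The share of calls that were higher was 69.7% and 51.4% for GDF15 and PairFed against Vehicle, and 58.7% and 32.5% with upper-quartile scaling. Leaving out 1 library gave 2 to 4, 0 to 2 and 0 to 0 members and 134 to 476, 0 to 135 and 21 to 171 genes in the 3 comparisons. For GDF15 against Vehicle 4 members passed without GDF15 3, and the genes called were 134 without GDF15 2, 172 without GDF15 1, 152 without Vehicle 1 and 178 without Vehicle 3. For PairFed against Vehicle Slc38a4 passed without Vehicle 5, GDF15 3 or PairFed 1 (edgeR adjusted p = 0.0331, 0.0462 and 0.0481), and Slc7a2 without GDF15 3 (edgeR adjusted p = 0.0438). The genes called there were 0 without Vehicle 1, Vehicle 3, PairFed 2 or PairFed 4, 11 without Vehicle 2 or PairFed 5, 18 without GDF15 4, 22 without GDF15 2, 54 without GDF15 3, 94 without Vehicle 5 and 135 without PairFed 1. For GDF15 against PairFed they were 52 without Vehicle 5, 30 without GDF15 1, 32 without GDF15 2, 171 without PairFed 1, 57 without PairFed 2, 47 without PairFed 3, 21 without PairFed 4 and 26 without PairFed 5.

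The 34 sign changes fell on 9 pairs of a member and a comparison, none of which had passed. For GDF15 against Vehicle, the score in the fit gave 0.00792 for Slc3a2, -0.0775 for Slc43a1 and -0.0286 for Slc25a47. For PairFed against Vehicle, upper-quartile scaling gave -0.0191 for Slc3a1 and -0.0216 for Slc3a2, a filter of 10 CPM in 5 libraries gave -0.0144 for Slc3a1 and -0.0169 for Slc3a2, and the depth term gave -0.0276 for Slc3a2. For GDF15 against PairFed, upper-quartile scaling gave -2.55e-05 and the score -0.0171 for Slc38a3, and the depth term gave 0.201 for Slc1a2 and 0.0037 for Slc43a1. Over the left-out libraries, PairFed against Vehicle ran from -0.0895 to 0.0786 for Slc3a1 and from -0.0297 to 0.0287 for Slc3a2. GDF15 against PairFed ran from -0.0472 to 0.0872 for Slc38a3, from -0.147 to 0.0167 for Slc1a2, from -0.236 to 0.117 for Slc43a1 and from -0.119 to 0.0357 for Slc25a47.

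The labels give no shared animal, litter or day. The numbers in the column names were tried as a replicate block, chosen after seeing the data: 5, 1 and 0 members and 361, 98 and 112 genes passed in the 3 comparisons. Same-numbered libraries deviated together with correlations of -0.30 to 0.29 across the 3 comparisons, and in each comparison 1 of 5 libraries was most like the library of its own number, so the numbers were not read as pairs. Slc43a1 has the fewest counts of the 10 members, 9 to 42 per library.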

Other observations

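Lysosomal amino acid transporters, which return amino acids from protein breakdown to the cytosol, did not pass in any of the 3 comparisons. Of 10 listed, 9 were tested, 4 of 9 had a positive log2 fold change in GDF15 against Vehicle livers and 3 of 9 in PairFed against Vehicle livers, and the medians were -0.03 and -0.03. Their summed level was 178 to 211 CPM in GDF15, 199 to 209.5 CPM in PairFed and 177 to 207 CPM in Vehicle livers.

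Atf4, the transcription factor of the amino acid response, averaged 86.2 CPM in GDF15, 78.4 CPM in PairFed and 96.1 CPM in Vehicle livers (n = 5 each), and its log2 fold change of -0.16 ± 0.18 between GDF15 and Vehicle did not pass (edgeR adjusted p = 0.717). Of 20 genes known as its targets 16 were tested, and 1 rose and 1 fell in GDF15 against Vehicle livers, with a median of 0.05. The one that rose was Cebpb, a transcription factor that also answers to hormones and acute-phase signals (1.26, edgeR adjusted p = 0.0125). The one that fell was Mthfd2, a mitochondrial folate enzyme (-1.01, edgeR adjusted p = 0.0254). Mthfd2 was scarce, with averages of 1.98 CPM in GDF15 and 3.99 CPM in Vehicle livers. Slc38a2, named above and not counted in that list, is also a known target of Atf4. Asns, the asparagine synthetase by which the response is often read, was too low in these livers to be tested.

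Markers of periportal hepatocytes, the cells that hold the urea cycle, were all tested, 15 of 15. In GDF15 against Vehicle livers 6 rose (Hal, Sds, Gls2, Ass1, Cps1 and Arg1) and none fell, with a median of 0.59, and in PairFed against Vehicle livers none passed, with a median of 0.26. Between GDF15 and PairFed livers 3 rose (Sds, Ass1 and Cps1), none of which passed with a term for library depth, which marks most PairFed and no GDF15 libraries. Of these genes 5 are also among the enzymes named above, so the counts are not separate evidence.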
